A study of Mus musculus with 12 samples.

Results

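Sensory neurons of the dorsal root ganglia (DRG) at the lumbosacral levels L6 and S1 (together called L6S1) were compared with those at the lumbar levels L3, L4 and L5 (together called L345) in adult male mice. The comparison used 6 of the 12 libraries of the series, namely those with M in their title: 3 from L6S1 (A, B, C) and 3 from L345 (A, B, C). The other 6 libraries came from females and entered only the comparison of sexes near the end. At L6S1, 93 genes rose and 118 fell, of 14559 genes tested. Caudal Hox genes, the enkephalin precursor Penk, the nicotinic receptor subunits Chrna3 and Chrnb4, the estrogen receptor Esr1 and the steroid reductase Srd5a2 were among the genes that rose, and the trunk Hox genes Hoxb7 and Hoxb6 were among those that fell furthest.

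All male mice were C57BL/6, 3 months old, and carried a Ret allele flanked for Cre excision with an EGFP reporter (RetFloxedEGFP) together with Cre recombinase in the Scn10a gene (Scn10a<tm2(cre)Jnw>), which encodes the voltage-gated sodium channel NaV1.8. Both groups carried the same alleles, so no animal without them was compared, and the number of copies of each allele is not given in the labels. Cells were dissociated from the ganglia and sorted by fluorescence, so the libraries describe the EGFP-marked neurons that NaV1.8-driven Cre reached, with whatever other cells passed the sort. Each library was a pool of mice. L345 A held 30 ganglia of 5 mice and L345 B held 12 ganglia of 2 mice. L345 C held 18 ganglia, of 5 mice in 1 label and of 3 mice in another. L6S1 A and B each held 20 ganglia of 5 mice, and L6S1 C held 12 ganglia of 3 mice. L6S1 C carries a title in another form (9cGNAV in place of RetFloxEGFP-NaV1.8Cre), and its genotype field names the Ret allele only.

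As background, DRG neurons carry touch, temperature, pain and visceral sense to the spinal cord. Mid-lumbar ganglia supply much of the hindlimb, while L6 and S1 ganglia hold many of the afferents of the bladder, the distal bowel and the sexual organs. Hox genes, which encode homeodomain transcription factors, lie in 4 clusters, and genes toward the 5′ end of a cluster (high paralog numbers) are used at more caudal positions of the body axis. Neurons with NaV1.8 are mostly small-diameter nociceptors, and those that also use Ret, the receptor of the GDNF family of growth factors, include the non-peptidergic nociceptors marked by Mrgprd and low-threshold mechanoreceptors with unmyelinated fibres.

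Total counts were 20758857, 19756080 and 24813220 for L345 A, B and C, and 25780213, 23862966 and 26460108 for L6S1 A, B and C. Levels below are CPM (counts scaled to 1e6 per library) after TMM scaling and are listed in the order A, B, C. Marker sums and the levels of Ighm, Apoe, Slc18a2, Slc5a7, Slc18a1 and Insm1 use each library's own total instead. A floor of 3 counts lay between 0.113 and 0.152 CPM in these libraries, which covers counting error only because the reads carried no molecular identifiers. Scn10a stood at 598.0, 461 and 661 CPM at L345 and at 455, 442 and 376 CPM at L6S1, with groups apart but no call (log2 fold change -0.43 ± 0.15 SE, adjusted p = 0.128). Ret stood at 182, 134 and 201 CPM at L345 and at 153, 167 and 136 CPM at L6S1, with overlapping groups. Transcripts of both genes were thus present in each library. Both genes also hold the engineered alleles of these mice, and the counts do not separate altered from unaltered copies. No unsorted cells were compared, so these values do not test the sort. As the labels report separate pools but not separate experiments, the p-values measure the spread between these pools. In bulk RNA, fewer cells of a type and less RNA per cell cannot be told apart.

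A gene was called at an adjusted p under 0.05 in the edgeR quasi-likelihood fit of the 6 libraries, and fold changes are log2 of L6S1 over L345. The 211 called genes made up 1.45% of the genes tested, with 0.639% called higher and 0.81% called lower, and 3021 genes had an unadjusted p under 0.05. The median change was 1.31 among genes that rose and -0.86 among genes that fell, beside -0.03 over all genes tested. Of the 87 genes called with a change above 1 on the log2 scale, 58 rose and 29 fell. The groups did not overlap in any called gene, which also held for 25.2% of all genes tested (12.3% higher and 13% lower at L6S1). The plot of all genes shows that the rises were fewer and larger, while most falls were under 1 on the log2 scale. The count moved with single libraries: it was 99 without L345 A, 71 without L6S1 A and 707 without L6S1 B. Without L6S1 C, the library with the other title form, it was 146, with 62 higher and 84 lower.

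**Figure D1:**
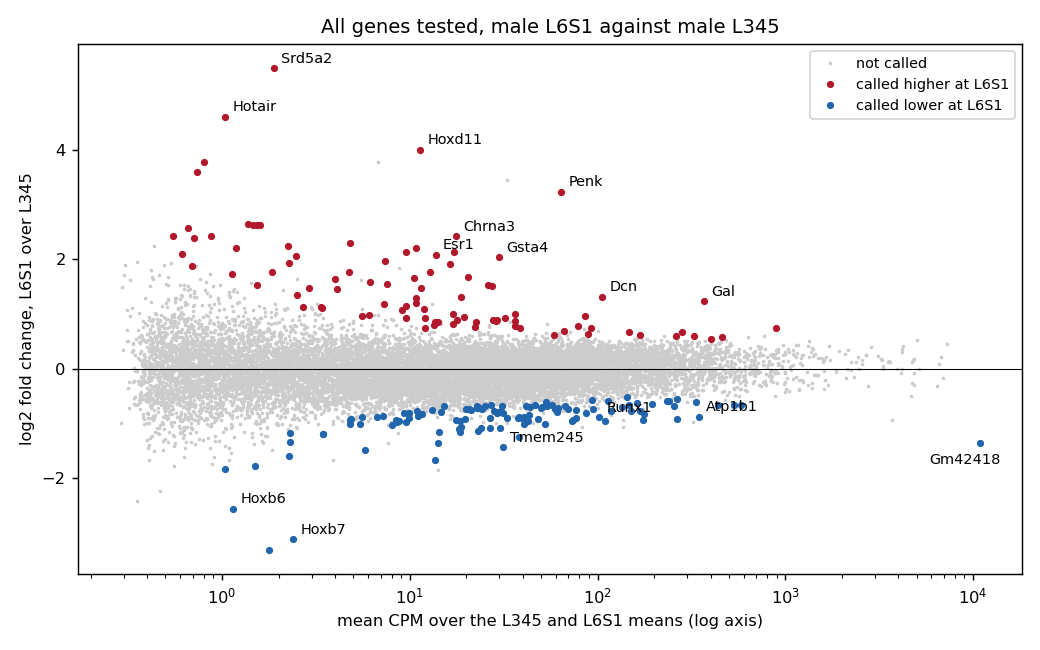
Log2 fold change of L6S1 over L345 in males against mean CPM (log axis) for the 14559 genes tested. Red points are the 93 genes that rose and blue points the 118 that fell, and grey points were not called. Srd5a2 lies at 5.50 and Hoxb7 at -3.12.

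The sequences upstream of the transcription start are shown for genes that carry the largest changes or that rose as neighbours. Hoxd11 and Srd5a2 had some of the largest rises, and Chrna3 and Chrnb4 lie next to each other and rose together. Each line gives the 250 bases before the start, from RefSeq on build GRCm38.p6, with any GC box (GGGCGG or its reverse complement) in capitals.
Hoxd11 promoter (chr2:74679308-74679557, plus strand): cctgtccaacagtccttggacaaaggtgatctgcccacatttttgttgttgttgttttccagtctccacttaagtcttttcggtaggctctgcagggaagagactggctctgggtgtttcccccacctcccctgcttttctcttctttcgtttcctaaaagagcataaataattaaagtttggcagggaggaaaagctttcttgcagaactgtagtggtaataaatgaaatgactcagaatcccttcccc
Srd5a2 promoter (chr17:74047861-74048110, minus strand): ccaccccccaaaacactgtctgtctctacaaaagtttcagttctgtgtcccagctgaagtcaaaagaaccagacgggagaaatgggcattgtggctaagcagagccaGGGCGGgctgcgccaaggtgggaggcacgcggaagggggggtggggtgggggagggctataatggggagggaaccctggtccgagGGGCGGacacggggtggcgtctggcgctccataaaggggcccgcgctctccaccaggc
Chrna3 promoter (chr9:55026563-55026812, minus strand): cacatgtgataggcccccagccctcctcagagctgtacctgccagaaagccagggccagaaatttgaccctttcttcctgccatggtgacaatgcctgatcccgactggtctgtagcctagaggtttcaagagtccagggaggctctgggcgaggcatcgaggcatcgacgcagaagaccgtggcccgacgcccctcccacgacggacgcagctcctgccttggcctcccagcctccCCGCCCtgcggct
Chrnb4 promoter (chr9:55048545-55048794, minus strand): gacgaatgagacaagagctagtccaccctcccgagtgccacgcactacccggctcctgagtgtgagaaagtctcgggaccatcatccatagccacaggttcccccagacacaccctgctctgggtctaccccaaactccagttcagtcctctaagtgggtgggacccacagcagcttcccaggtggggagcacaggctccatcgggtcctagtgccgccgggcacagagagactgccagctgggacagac
In these windows, Srd5a2 held 2 GC boxes, Chrna3 held 1, and neither Chrnb4 nor the first listed Hoxd11 start held one. Promoter entries matched 65 of the 93 genes that rose (80 starts), 85 of the 118 that fell (107 starts) and 10823 of all genes tested (13912 starts). Penk and Hoxb7 had no entry. A GC box stood in 45% of the starts of genes that rose, 57.9% of those of genes that fell and 56.1% of all. The same windows were searched on both strands for a cyclic AMP response element (TGACGTCA), a TATA box (TATAAA) and a PBX-HOX site (TGATNNAT), none of which stood in the 4 windows shown. A second Hoxd11 start (chr2:74682073-74682322), not shown, held 1 GC box and 1 PBX-HOX site. The cyclic AMP element was found in 5% of the starts of genes that rose (4 starts), 5.61% of those of genes that fell (6) and 2.56% of all (356). For the TATA box these shares were 8.75% (7 starts), 4.67% (5) and 6.63% (922). For the PBX-HOX site they were 6.25% (5 starts), 3.74% (4) and 3.95% (549). The shares of genes that rose or fell thus rest on few matches for these 3 motifs. The TATA box and the PBX-HOX site can share letters where they lie side by side. A match describes letters only and is not a bound site.

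Of the caudal Hox list (15 genes), 6 were tested, 4 rose, none fell, and the median change was 3.62. Of the trunk list (16 genes), 12 were tested, 1 rose, 5 fell, and the median was -0.97. None of the 7 tested genes of the anterior list was called, and their median was -0.50. Genes of the lists that were not tested had too few counts in these libraries.

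**Figure D2:**
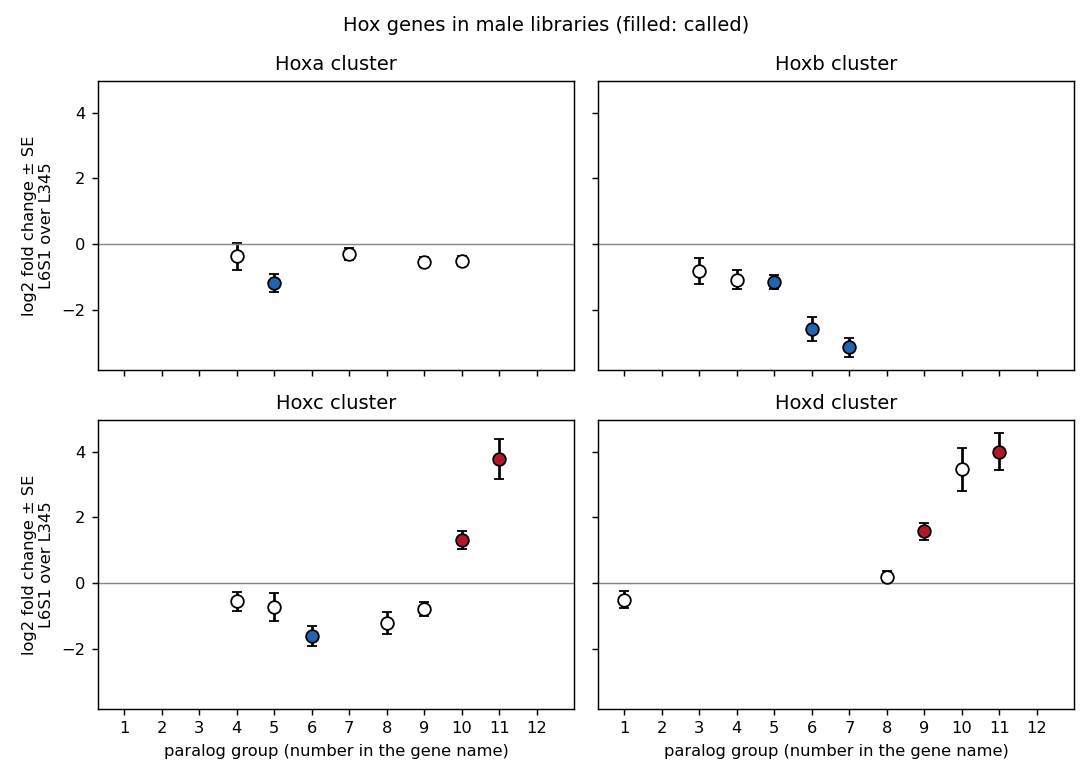
Log2 fold change ± SE of L6S1 over L345 in males for tested Hox genes, by paralog group, in one panel for each cluster. Filled points were called. In the Hoxc and Hoxd clusters the values run from below 0 at low paralog numbers to 3.78 for Hoxc11 and 4.00 for Hoxd11, and in the Hoxb cluster they run down to -3.12 for Hoxb7.

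In the Hoxd cluster on chromosome 2, Hoxd11 (chr2:74679557-74687016, GRCm38.p2, plus strand) stood at 2.48, 0.152 and 1.33 CPM at L345 and at 16.2, 24.0 and 24.2 CPM at L6S1. It rose by 4.00 ± 0.56 (adjusted p = 0.0175), with every L6S1 library above every L345 library and L345 B at the floor. The change was 4.77 without L345 A. The call was lost without L345 C (adjusted p = 0.193) and without L6S1 C (adjusted p = 0.135). Hoxd10 was at 8.69, 1.01 and 6.66 CPM at L345 and at 54.3, 67.2 and 60.03 CPM at L6S1. Its change of 3.46 ± 0.65 was not called (adjusted p = 0.0758), although the groups were far apart. Without L345 B, the lowest library for this gene, the change was 2.99 and the gene was called (adjusted p = 9.61e-06). Hoxd9 rose by 1.58 ± 0.26 (adjusted p = 0.00859) from 3.39, 1.97 and 3.88 CPM to 7.05, 9.25 and 11.5 CPM, again with L345 B lowest. Hoxd8 overlapped between the groups, at 0.20 ± 0.17 on the log2 scale, and Hoxd1 was at -0.50 ± 0.27, neither called.

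The Hoxc cluster on chromosome 15 held both directions. Hotair, a long non-coding RNA transcribed between Hoxc11 and Hoxc12, had 5, 0 and 0 counts at L345 and 32, 55 and 64 counts at L6S1. It rose by 4.61 ± 0.70 (adjusted p = 0.00432), a size that was 8.59 without L345 A, which held all its L345 counts, and 3.98 without L345 C. Hoxc11 had 2, 0 and 5 counts at L345 and 27, 31 and 58 counts at L6S1, and rose by 3.78 ± 0.61 (adjusted p = 0.00623), or by 4.82 without L345 C. With so few counts at L345, the fitted sizes of both changes depend on the prior count. Hoxc10 rose by 1.31 ± 0.27 (adjusted p = 0.0361), from 13.9, 5.72 and 12.6 CPM to 23.03, 24.3 and 32.7 CPM. Its call was lost without L345 C (adjusted p = 0.0506), L6S1 A (0.0854) or L6S1 C (0.134), and with offsets for GC content and transcript length (0.0687). Hoxc9 and Hoxc8 were lower without a call, at -0.79 ± 0.22 and -1.20 ± 0.33. Hoxc6, 26364 bases downstream of Hoxc10, fell by 1.60 on the log2 scale (SE 0.31, adjusted p = 0.0182), from 4.06, 2.73 and 3.43 CPM to 1.18, 0.722 and 1.46 CPM. That call was lost without L345 A (adjusted p = 0.0659) or L6S1 A (0.0932).

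In the Hoxb cluster all tested genes were below 0 at L6S1. Hoxb7 (chr11:96286623-96290162, plus strand) fell from 4.20, 4.15 and 4.52 CPM to 0.588, 0.467 and 0.411 CPM, a change of -3.12 ± 0.29 (adjusted p = 0.000108). Its neighbour Hoxb6 fell from 2.10, 1.62 and 2.18 CPM to 0.353, 0.297 and 0.337 CPM, a change of -2.56 ± 0.36 (adjusted p = 0.00228). Both genes were closely matched within each group. Hoxb5, the next gene, was at 34.6, 24.4 and 36.5 CPM at L345 and at 14.3, 10.4 and 18.3 CPM at L6S1, and fell by 1.15 on the log2 scale (SE 0.21, adjusted p = 0.0156). Without L6S1 A its adjusted p was 0.106. Hoxb4 was at -1.08 ± 0.29 and Hoxb3 at -0.82 ± 0.39, neither called. In the Hoxa cluster on chromosome 6, Hoxa5 fell by 1.19 on the log2 scale (SE 0.27, adjusted p = 0.0433). It was not called in 5 of the 6 fits without 1 library, all except that without L6S1 B, with an adjusted p up to 0.23. Hoxa9 (-0.54 ± 0.15) and Hoxa10 (-0.52 ± 0.15) had groups apart without a call, so Hoxa10, from the caudal list, was lower in all 3 L6S1 libraries. None of the 10 tested TALE genes, whose proteins bind DNA together with Hox proteins, was called, with a median of -0.05.

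Neuropeptide precursors changed in one direction where they were called. Of 15 tested, 4 rose, none fell, and the median was 0.27. Penk (chr4:4133531-4138819, minus strand), the precursor of the opioid enkephalins, stood at 14.4, 7.39 and 15.02 CPM at L345 and at 110.1, 87.0 and 150.1 CPM at L6S1. The lowest L6S1 library was thus well above the highest L345 library, and L345 B was the lowest of its group. The change was 3.23 ± 0.28 (adjusted p = 0.000663). Gal, the precursor of galanin, rose by 1.23 ± 0.15 (adjusted p = 0.00118), from 189, 241 and 235 CPM to 414, 536 and 609 CPM, without overlap. Adm, the precursor of the vasodilator adrenomedullin, rose by 2.63 ± 0.46 (adjusted p = 0.0108) at low levels, from a mean of 0.392 ± 0.274 CPM (SD, n = 3) to 2.54 ± 0.88 CPM. Without L345 C the change of Adm was 3.22. Cartpt, which gives the CART peptides, rose by 0.77 ± 0.16 (adjusted p = 0.031), from 54.4, 52.8 and 67.2 CPM to 81.2, 121 and 95.7 CPM. The Cartpt call was lost without L345 A (adjusted p = 0.0952) or L345 B (0.0521) and with GC and length offsets (0.0753). Tac1, the precursor of substance P, was at 2331, 2499 and 2543 CPM at L345 and at 3441, 3809 and 2461 CPM at L6S1, where L6S1 C fell among the L345 libraries, and was not called (0.40 ± 0.15, adjusted p = 0.161). Calca, the precursor of CGRP, was not called either, at 0.22 ± 0.14. No gene of the 12 tested opioid and cannabinoid receptors and enzymes was called, and their median was 0.09.

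**Figure D3:**
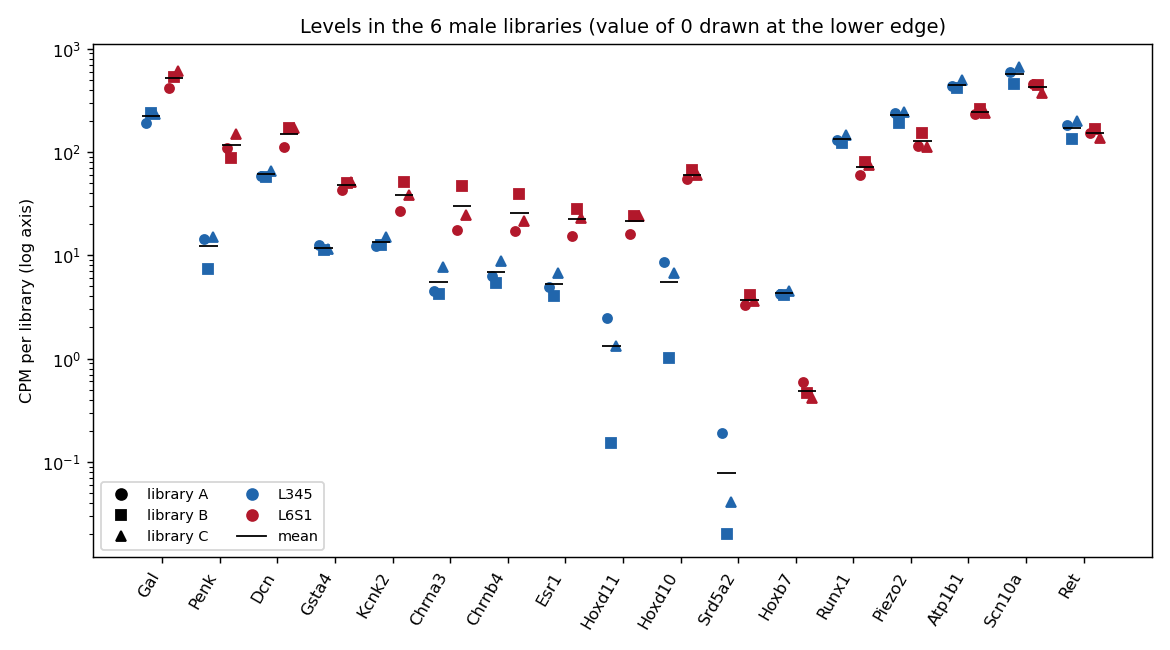
CPM (log axis) of 17 genes in each male library, with L345 in blue and L6S1 in red, a symbol for each library letter and a bar at the group mean. L345 B is the lowest library for Hoxd11, Hoxd10 and Penk, and L6S1 B is the highest for Chrna3, Chrnb4, Esr1 and Kcnk2. The value 0 of Srd5a2 in L345 B is drawn at the lower edge.

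Among 17 tested genes of peptide processing, 2 rose and none fell, with a median of -0.07. Qpct, which encodes glutaminyl cyclase, an enzyme that forms the pyroglutamate end of some peptides, rose by 2.13 ± 0.26 (adjusted p = 0.00118). It stood at 5.21, 5.92 and 7.92 CPM at L345 and at 19.9, 40.5 and 23.3 CPM at L6S1, with L6S1 B highest. Pcsk1, a prohormone convertase, rose by 0.86 ± 0.19 (adjusted p = 0.0342), from 25.8, 26.9 and 25.04 CPM to 42.4, 63.2 and 35.98 CPM. The Pcsk1 call was lost without L345 A (adjusted p = 0.0789) or L6S1 A (0.116). The granins Chga and Chgb were not called, at -0.02 ± 0.17 and -0.13 ± 0.14.

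Of 28 tested neuropeptide receptors and their accessory proteins, 4 rose, none fell, and the median was 0.45. Qrfpr, the receptor of the peptide QRFP, rose by 2.29 ± 0.26 (adjusted p = 0.000712), from 1.58, 1.16 and 2.10 CPM to 8.38, 6.20 and 9.35 CPM. Mrap2, an accessory protein of melanocortin receptors, rose by 2.21 ± 0.26 (adjusted p = 0.000712), from 3.82, 3.85 and 3.84 CPM to 14.1, 26.2 and 13.2 CPM. The L345 libraries were nearly level for Mrap2, and L6S1 B was the highest. Mc4r, the melanocortin 4 receptor, rose by 2.57 ± 0.50 (adjusted p = 0.0195), but at a mean of 0.191 ± 0.096 CPM for L345 beside 1.12 ± 0.33 CPM for L6S1 (SD, n = 3 each). Its call was lost without L345 C (adjusted p = 0.0503), L6S1 A (0.119) or L6S1 C (0.0521). Crhr2, a receptor of urocortins, rose by 1.45 ± 0.27 (adjusted p = 0.0156), from 2.63, 1.52 and 2.38 CPM to 5.48, 4.84 and 7.59 CPM, and was not called without L6S1 A (adjusted p = 0.0567).

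Subunits of nicotinic acetylcholine receptors, the channels opened by acetylcholine, split by gene. Of 10 tested, only the neighbours Chrna3 and Chrnb4, 1597 bases apart on chromosome 9 and on the same strand, rose, none fell, and the median was 0.12. Chrna3 (chr9:55011343-55026559) stood at 4.49, 4.25 and 7.75 CPM at L345 and at 17.7, 47.2 and 24.4 CPM at L6S1, a change of 2.42 ± 0.38 (adjusted p = 0.0175). Chrnb4 (chr9:55028156-55048544) stood at 6.31, 5.36 and 8.89 CPM at L345 and at 17.2, 38.9 and 21.5 CPM at L6S1, a change of 1.91 ± 0.30 (adjusted p = 0.00984). Both genes ranked the 6 libraries in the same order, with L6S1 B highest and L345 B lowest. The Chrna3 call was lost without L345 A (adjusted p = 0.115) or L6S1 C (0.111). Chrna6, another subunit, was at 254, 265 and 264 CPM at L345 and at 315, 291 and 244 CPM at L6S1, and was not called. Of the autonomic neuron markers, Phox2a, Hand2, Slc6a2, Slc18a3 and Chat were among those with no count in any of the 6 libraries. The summed level of the 18 markers was 30.9 to 33.4 CPM at L345 and 19.6 to 32.1 CPM at L6S1. Slc18a2 alone gave 12.3 to 23.9 CPM of it. Slc5a7 (2.46 to 6.07 CPM), Slc18a1 (1.57 to 3.10 CPM) and Insm1 (1.55 to 3.99 CPM) were also counted in every library.

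Among 14 tested steroid receptors and steroid enzymes, 2 rose, none fell, and the median was 0.11. Srd5a2 (chr17:74017706-74047916, minus strand), the steroid 5-alpha-reductase that makes dihydrotestosterone from testosterone, had 4, 0 and 1 counts at L345 and 85, 97 and 97 counts at L6S1. This was the largest fitted change of a called gene, 5.50 ± 0.52 (adjusted p = 0.000108), a size that depends on the prior count because of the few counts at L345 and that was 7.07 without L345 A. Esr1, estrogen receptor alpha, rose by 2.08 ± 0.25 (adjusted p = 0.000805), from 4.97, 4.00 and 6.70 CPM to 15.2, 28.4 and 23.2 CPM. The lowest L6S1 library was far above the highest L345 library for Esr1. Srd5a1, a related reductase, was not called, at -0.10 ± 0.18, nor was Esr2, estrogen receptor beta, at 0.17 ± 0.39.

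Among potassium channels, Kcnk2 was the only one of 9 tested two-pore channels that was called. It encodes TREK-1, which opens to stretch, heat and lipids, and rose by 1.53 ± 0.21 (adjusted p = 0.00219) from 12.3, 12.7 and 15.1 CPM to 26.6, 51.2 and 38.3 CPM. In the opposite direction Kcnt2, a sodium-activated potassium channel, fell by 1.48 on the log2 scale (SE 0.24, adjusted p = 0.00661), from 8.84, 8.90 and 7.92 CPM to 2.04, 3.91 and 3.25 CPM. It was the only one called of 20 calcium-activated and inward rectifier channels and their relatives. None of 34 voltage-gated potassium channels, 15 sodium channels or 17 calcium channels was called, with medians of -0.27, -0.28 and -0.35. With offsets for GC content and transcript length these medians were -0.08, -0.01 and -0.07. Trpm2, a cation channel of oxidative stress and heat, was the only called TRP channel of 15 and rose by 0.78 ± 0.14 (adjusted p = 0.0165), with calls lost without L345 A (adjusted p = 0.0839) or L6S1 A (0.0576).

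Gsta4, a glutathione transferase that clears products of lipid peroxidation, had the smallest adjusted p of all genes (2.26e-05). It stood at 12.7, 11.2 and 11.5 CPM at L345 and at 43.2, 49.9 and 51.8 CPM at L6S1, a change of 2.03 ± 0.15 with little spread in either group. It was the only one called of 18 tested glutathione transferases, 15 of which were above 0, with a median of 0.25. Olfm2, a secreted olfactomedin protein, rose by 2.13 ± 0.26 (adjusted p = 0.00111), from 4.78, 2.07 and 3.80 CPM to 12.3, 17.1 and 17.4 CPM. Serpina3c, a serine protease inhibitor, rose by 1.97 ± 0.26 (adjusted p = 0.00143), from 3.77, 2.83 and 2.38 CPM to 7.91, 14.7 and 12.5 CPM. Angpt4, an angiopoietin, rose by 2.24 ± 0.41 (adjusted p = 0.0156) from a mean of 0.767 ± 0.412 CPM to 3.70 ± 1.55 CPM (SD, n = 3 each).

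Some genes that rose mark cells other than neurons. Of 11 tested macrophage and other immune genes, 3 rose, none fell, and the median was 0.79. C1qb, a complement subunit of macrophages, rose by 2.06 ± 0.27 (adjusted p = 0.00128) from 0.860, 0.961 and 1.05 CPM to 3.49, 4.16 and 4.41 CPM. Trac, the constant region of the T cell receptor alpha chain, rose by 1.94 ± 0.31 (adjusted p = 0.00641) from a mean of 0.944 ± 0.243 CPM to 3.63 ± 0.99 CPM. H2-Ab1, a chain of MHC class II, rose by 1.52 ± 0.31 (adjusted p = 0.0258), with the call lost in 4 of 6 fits without 1 library (without L345 B or C, or L6S1 A or C, with an adjusted p up to 0.132). The summed level of the 24 immune markers was 41.8, 26.2 and 37.6 CPM at L345 and 50.9, 45.7 and 67.95 CPM at L6S1, so all 3 L6S1 libraries held more. Much of this sum was Ighm, whose groups overlapped, at 27.9, 15.2 and 24.8 CPM at L345 and 26.1, 21.8 and 44.5 CPM at L6S1. Of the 11 tested immune genes, 10 were above 0. The groups were apart with L6S1 higher in 7 of them and lower in 1, beside 12.3% and 13% of all genes tested. Defining genes were low in every library: Trbc1 and Cd3e had no count, and Ptprc, Csf1r, Cx3cr1, C1qa and C1qc stayed under 1 CPM. Ly6a, a surface antigen of endothelial, blood and stromal cells, rose by 1.77 ± 0.27 (adjusted p = 0.00487) from 2.53, 1.87 and 2.02 CPM to 7.29, 9.80 and 4.90 CPM.

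Dcn, which encodes decorin, a proteoglycan of connective tissue, was the only called fibroblast gene of 10 tested. It rose by 1.31 ± 0.17 (adjusted p = 0.00118), from 58.3, 57.9 and 66.1 CPM to 111, 171 and 172 CPM. The fibroblast marker sum was 519, 547 and 598 CPM at L345 and 747, 694 and 712 CPM at L6S1. Without Dcn it was 460.2, 489 and 532 CPM at L345 and 637, 525 and 538 CPM at L6S1, where the groups overlapped. Col1a1, Igfbp6, Dpt, Mgp and Fbln1 stayed under 1 CPM in every library. The satellite glia sum overlapped between the groups, at 2026, 1774 and 1723 CPM at L345 and 2117, 1775 and 2321 CPM at L6S1. Apoe alone gave 885 to 1476 CPM of it, and 10 of the 16 genes were below 0, with a median of -0.13. No gene of the satellite glia, Schwann cell or endothelial lists was called. The sum of the 12 skeletal muscle markers was higher in every L6S1 library, at 6.07, 4.61 and 5.16 CPM at L345 and 9.08, 7.54 and 9.22 CPM at L6S1, and none of the 3 tested was called. Myh4, Tnni2 and Mb had no count. The sum of the 7 red blood cell markers was 4.24, 3.70 and 2.14 CPM at L345 and 0.737, 2.14 and 0.831 CPM at L6S1, and the 1 tested was not called. The part of the other cell types in these results was not tested.

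Genes that fell at L6S1 included transcription factors, receptors and guidance genes of sensory neurons. Of 30 tested sensory neuron transcription factors, 3 fell and none rose, while 0.81% of all genes tested fell. The median of the list was -0.28, or -0.17 with GC and length offsets. Runx1, which directs the non-peptidergic nociceptor fate, stood at 131, 122 and 146 CPM at L345 and at 59.97, 79.6 and 75.5 CPM at L6S1, a change of -0.89 ± 0.14 (adjusted p = 0.00646). The groups were well apart, and the call was lost only without L6S1 A (adjusted p = 0.0586) among the fits without 1 library. Casz1 and Zeb2, zinc finger factors, fell by 0.80 on the log2 scale (SE 0.18, adjusted p = 0.0354) and by 0.80 (SE 0.17, adjusted p = 0.0341). Each of these calls was lost in 4 of the 6 fits without 1 library. The Casz1 call was lost without L345 A or C or L6S1 A or C, with an adjusted p up to 0.238, and the Zeb2 call without L345 A or B or L6S1 A or C, with one up to 0.232. Zeb2 was also not called with GC and length offsets (adjusted p = 0.0985). With these offsets the changes of Runx1, Casz1 and Zeb2 were -0.66, -0.59 and -0.37, and Runx1 and Casz1 stayed called (adjusted p = 0.00706 and 0.0175).

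The marker receptor of the non-peptidergic class, Mrgprd, was at 592, 489 and 648 CPM at L345 and at 609.5, 502 and 600.3 CPM at L6S1, with overlapping groups and a change of -0.01 ± 0.14. The sign of this value turned in other scalings. None of the 10 tested Mas-related receptors was called. The 18 tested genes of the list for the Mrgprd class had a median of -0.23. None rose, and those that fell were Lpar3 and Runx1. Lpar3, a receptor of lysophosphatidic acid, fell by 0.69 on the log2 scale (SE 0.15, adjusted p = 0.0311). It was not called in any fit without 1 library except that without L6S1 C, with an adjusted p up to 0.103. Gfra2, the co-receptor for the Ret ligand neurturin, was at 396, 264 and 380.0 CPM at L345 and at 248, 270.2 and 325 CPM at L6S1, and was not called.

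Piezo2, the channel of light touch, stood at 240.4, 192 and 246 CPM at L345 and at 115, 154 and 112 CPM at L6S1. It fell by 0.83 on the log2 scale (SE 0.15, adjusted p = 0.0156) and was not called without L6S1 A (adjusted p = 0.123). With GC and length offsets the change of Piezo2 was -0.54, and the gene was called (adjusted p = 0.0149). P2ry1, an ADP receptor, fell by 0.90 on the log2 scale (SE 0.18, adjusted p = 0.0217), from 122, 94.0 and 86.0 CPM to 44.8, 67.9 and 49.0 CPM, with the call lost without L345 A (adjusted p = 0.0821), L6S1 A (0.169) or L6S1 C (0.064). These were the 2 genes called of 11 tested genes of low-threshold mechanoreceptors with C fibres, whose median was -0.06. Th, the tyrosine hydroxylase that marks this class, was not called, at 0.59 ± 0.18 (adjusted p = 0.098).

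Atp1b1, the beta subunit of the sodium-potassium pump, was at 437, 419 and 495 CPM at L345 and at 235, 258 and 240.3 CPM at L6S1, and fell by 0.88 on the log2 scale (SE 0.12, adjusted p = 0.00227). It was the only called gene of 12 tested pump and Fxyd subunits, and the call held without any single library. Guidance genes that fell were Nrp1, a receptor of class 3 semaphorins (-0.74 ± 0.16, adjusted p = 0.0331), Sema4b, a transmembrane semaphorin (-0.88 ± 0.18, adjusted p = 0.0239), and Unc5c, a netrin receptor (-0.95 ± 0.20, adjusted p = 0.0325). These were 2 of 27 tested semaphorin, plexin and neuropilin genes and 1 of 22 tested netrin, Slit and Eph genes, with none rising in either list. Over all genes tested, 0.81% fell. The medians of the 2 lists were -0.21 and -0.31, or -0.07 and -0.11 with GC and length offsets. The calls of Nrp1, Sema4b and Unc5c were each lost without L6S1 A (adjusted p = 0.232, 0.181 and 0.172) and without L6S1 C (0.0874, 0.0518 and 0.0579). The Nrp1 and Unc5c calls were lost without L345 A (0.129 and 0.107), and the Sema4b and Unc5c calls without L345 C (0.0617 and 0.0909). Unc5c was also not called with GC and length offsets (0.115). Insrr, a receptor kinase of the insulin receptor family, fell by 1.20 on the log2 scale (SE 0.27, adjusted p = 0.0408), and Hspb1, a small heat shock protein, by 0.66 (SE 0.14, adjusted p = 0.0347). The Insrr call was lost in 5 fits without 1 library, all except that without L345 B, with an adjusted p up to 0.145. The Hspb1 call was lost without L345 A or C or L6S1 A or C, with an adjusted p up to 0.204.

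Other large falls were seen in genes of many roles. Med30, a subunit of the Mediator complex, fell by 1.67 on the log2 scale (SE 0.24, adjusted p = 0.00263), from 21.0, 23.2 and 17.9 CPM to 6.35, 4.12 and 9.01 CPM. Tmem245, a transmembrane protein, fell by 1.44 on the log2 scale (SE 0.18, adjusted p = 0.00118), from 36.5, 45.8 and 54.8 CPM to 15.7, 20.1 and 14.9 CPM. Fbp1, a gluconeogenic phosphatase, fell by 1.37 on the log2 scale (SE 0.21, adjusted p = 0.00503). The growth factors Kitl, the ligand of Kit, and Wnt5a fell by 1.17 (SE 0.19, adjusted p = 0.00668) and 1.16 (SE 0.21, adjusted p = 0.0133) on the log2 scale. Rest, a repressor of neuronal genes, fell by 1.34 on the log2 scale (SE 0.27, adjusted p = 0.0222), from 2.91, 3.29 and 3.68 CPM to 1.29, 1.10 and 1.50 CPM, with the call lost without L345 C (adjusted p = 0.0629) or L6S1 A (0.111). Iscu, a scaffold for iron-sulfur clusters, fell by 1.24 on the log2 scale (SE 0.21, adjusted p = 0.00984) and was not called without L6S1 A (0.0584). Pou3f2, a POU-domain factor, fell by 1.20 on the log2 scale (SE 0.27, adjusted p = 0.0413), with the call lost without L345 A (0.127), L345 C (0.0738) or L6S1 A (0.232) and with GC and length offsets (0.0611).

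Gm42418, which overlaps the ribosomal RNA repeat, took the most counts of any called gene: 12610, 13690 and 20390 CPM at L345 and 6815, 7112 and 4366 CPM at L6S1. It fell by 1.35 on the log2 scale (SE 0.21, adjusted p = 0.00951). Its reads can come from many near-identical copies, so it is reported as uncertain, and it was not called with GC and length offsets (adjusted p = 0.0817).

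Genes that rose and genes that fell differed in transcript length. The median transcript length was 2110 bases for genes that rose, 5010 bases for genes that fell and 3278 bases for all genes tested. Across the 14477 genes with a length, the log2 fold change and the length had a Spearman rho of -0.43, as a description over genes of the same 6 libraries. The log2 level of the longest 10% of genes minus that of the shortest 10% was 0.31, 0.08 and 0.30 at L345 and -0.38, -0.01 and -0.32 at L6S1. With offsets for GC content and length in each library, rho was -0.05, and 279 genes were called higher and 220 lower. Of the 211 called genes, 182 were called in that fit as well. The nuclear genes of oxidative phosphorylation, mostly short, had a median of 0.34 (0.22 with offsets), with 70 of 74 above 0 and none called. The 79 cytosolic ribosomal protein genes had a median of 0.24 (0.12 with offsets), and none was called. Over all genes tested, 47% were above 0. The plot of gene lists shows the spread of each list beside these values.

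**Figure D4:**
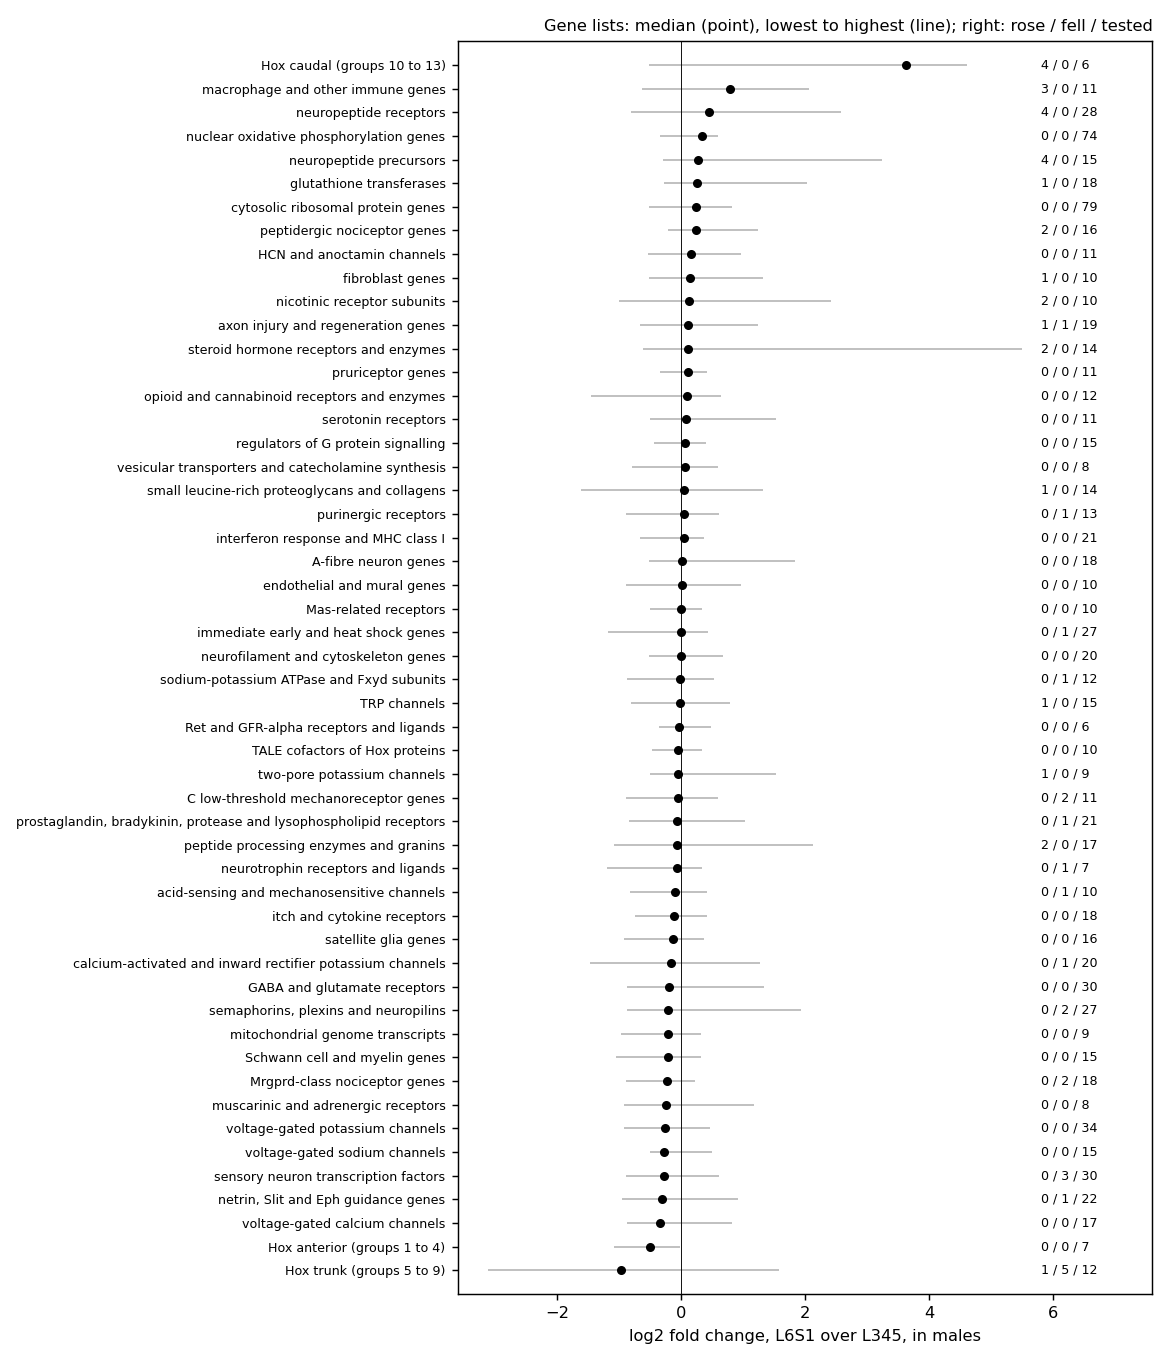
Log2 fold change of L6S1 over L345 in males for each gene list with at least 5 tested genes. Points are medians, lines run from the lowest to the highest gene, and the numbers at the right count genes that rose, fell and were tested. The caudal Hox list has its median at 3.62 and the trunk Hox list at -0.97, and most other medians lie near 0.

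The female libraries, 3 from L6S1 (A, B, C) and 3 from L345 (B, C, D), share no pool with the male ones and gave a comparison the male fit did not use. They came from females of the same strain, age and alleles, although the genotype field of L345 D names the Ret allele only and that of L6S1 B and C the Cre allele only. Of the 211 genes called in males, 203 had the same sign in females, 89 of the 93 that rose and 114 of the 118 that fell. Over all 14330 genes tested in both sexes, 69.1% had the same sign. The female log2 fold change and transcript length had a Spearman rho of -0.34 over 14250 genes, beside -0.43 in males. Both sexes thus shared the tilt with length, and its part in the shared signs was not tested. The female groups were apart in the same direction for 65 of the 93 genes that rose and 39 of the 118 that fell, beside 15.6% of all genes. The fit of the females alone called 18 of 14693 genes (0.123%), of which 15 were also called in males, 7.11% of the male calls and 83.3% of the female calls. These 15 were Arap3, C1qtnf7, Chrna3, Chrnb4, Dcn, Fbxl17, Gsta4, Hotair, Hoxb7, Hoxd11, Igha, Mrap2, Qpct, Serpinb1b and Srd5a2.

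**Figure D5:**
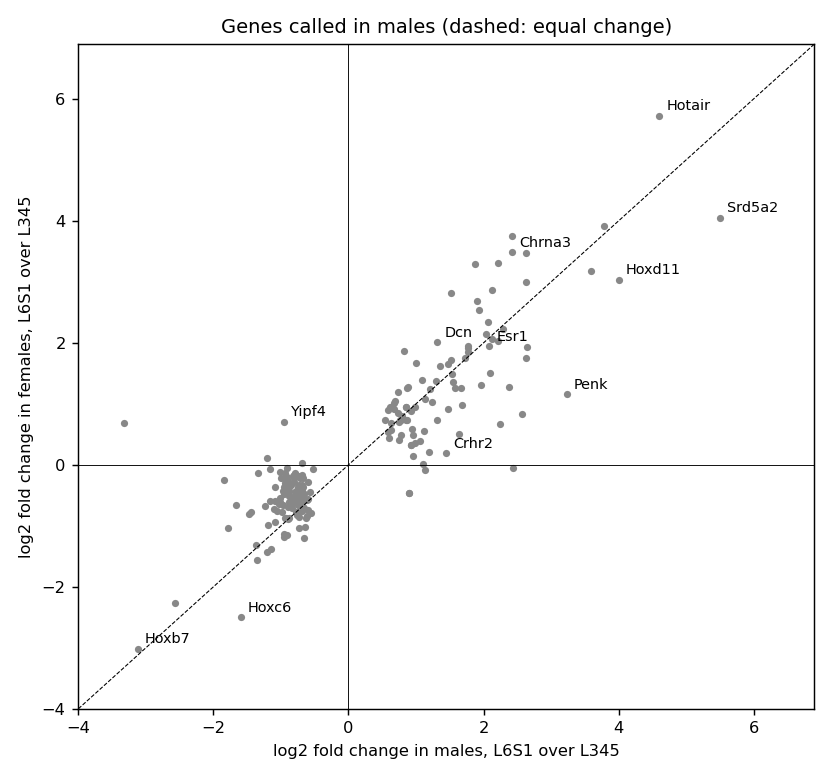
Log2 fold change of L6S1 over L345 in females against that in males for the 211 genes called in males. The dashed line marks equal change. Penk lies at 3.23 in males and 1.15 in females, and Chrna3 at 2.42 in males and 3.49 in females.

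Hoxd10, which missed the threshold in males, was called in females (adjusted p = 0.000724), with 8.68, 8.46 and 6.17 CPM at L345 and 75.5, 90.98 and 73.4 CPM at L6S1. Its change of 3.36 ± 0.26 in females and 3.46 ± 0.65 in males differed by 0.12 ± 0.62. Chrna3 stood at 4.00, 5.97 and 6.62 CPM at L345 and at 87.0, 35.6 and 63.4 CPM at L6S1 in females, and the male minus female difference was -1.04 ± 0.55 (adjusted p = 0.871). Penk stood at 6.72, 14.4 and 24.8 CPM at L345 and at 38.7, 27.4 and 36.2 CPM at L6S1 in females, a change of 1.15 ± 0.41 that was not called (adjusted p = 0.401). The lowest male L6S1 value of Penk, 87.0 CPM, was above the highest female one, 38.7 CPM. Male and female CPM were scaled in separate sets of libraries, and the sexes were not tested against each other within L6S1. The male minus female difference of the Penk change was 2.11 ± 0.55, with an unadjusted p of 0.00189 and an adjusted p of 0.871 in the edgeR fit of all 12 libraries. No level effect differed between the sexes after adjustment over 15281 genes, where 714 genes (4.67%) had an unadjusted p under 0.05 and the smallest adjusted p was 0.475. Without female L6S1 A, 817 genes were called in that test, so its count rests on this library. The 8 genes with opposite signs were Awat2, Cdc34, Chst5 and Max, which rose in males, and Pou3f2, Tmem69, Yipf4 and an unnamed gene (ENSMUSG00000048665), which fell.

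Across the alternative fits, 16 of the 57 called genes named by the rule stayed called in every one: Chrnb4, Dcn, Esr1, Gsta4, Hotair, Hoxb6, Hoxb7, Hoxd9, Kcnk2, Mrap2, Olfm2, Penk, Qpct, Qrfpr, Serpina3c and Srd5a2. In the single fit of all 12 libraries, where the females add to the estimate of the spread, 34 genes were called between the male groups and 18 of the 57 kept their call. All 211 called genes kept their sign in every alternative in which they were tested. These fits reuse the same male libraries, where the groups of every called gene were apart, so a kept sign adds little.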

How the data were processed

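RNA of sorted DRG neurons was measured in 6 male libraries, 3 from L6S1 and 3 from L345, grouped by their titles. The authors deposited counts, CPM and RPKM for 41388 Ensembl genes per library. The submitters' processing notes name Subread, featureCounts 1.4.5 and the build GRCm38.p2. Their strand setting, the annotation release and the version of Subread were "not given in the sources used here". Where 2 genes overlap on opposite strands, their reads may therefore be mixed. The deposited CPM and RPKM follow from the deposited counts of the same table and were not tested. Symbols came from GENCODE M21 for 40254 genes.

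The test was a robust quasi-likelihood fit of the 6 libraries alone (edgeR 4.0.16, R 4.3.3). It used filterByExpr by group, TMM scaling and Benjamini-Hochberg adjustment over the 14559 genes kept. The common biological coefficient of variation was 0.163, with 4 residual degrees of freedom. Total counts ranged from 19756080 to 26460108. The code was tested on simulated counts. No libraries held identical counts.

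Named genes were the 15 largest changes per direction (called, groups apart, mean CPM of 2 or more), up to 5 called genes per list and direction, the tested Hox genes, and 13 genes named in any case (Ret, Scn10a, Mrgprd, Gfra2, Penk, Esr1, Chrna3, Chrnb4, Hoxd10, Hoxb7, Gal, Tac1, Kcnk2). Other genes were chosen after their values were seen. Some items withheld for evaluation are not reported here. The 6 libraries, the 56 gene lists and the named genes were chosen with earlier results of these data known. Of the list entries, 5 had no match (Kiss1, Galr3, Tafa4, Mrgprc11, Ntn3). Marker sums, the markers said to stay under 1 CPM, and the levels of Ighm, Apoe, Slc18a2, Slc5a7, Slc18a1 and Insm1 use each library's own total. The comparison of sexes used an interaction term in a fit of all 12 libraries. Alternatives were RLE and upper-quartile scaling, 2 other filters, a replicate block, offsets for GC and length from 4-df splines, both together, a fit of all 12 libraries, each library left out, DESeq2 1.42.0, and limma-voom (limma 3.58.1) with quality weights.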

Additional observations from a re-analysis of the deposited data

How the results depend on the processing

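The direction of all 211 called genes held in every alternative in which they were tested (205 under the stricter filter). As the groups of all 211 were apart in the same male libraries, a turn of sign was hardly possible. The number of calls did not hold as well. It was 234 with RLE scaling (110 higher, 124 lower), 236 with upper-quartile scaling (125 higher, 111 lower) and 245 with at least 1 CPM in 3 libraries. It was 889 with no filter (334 higher, 555 lower), 499 with GC and length offsets (279 and 220), 745 with DESeq2 (342 and 403), 3009 with limma-voom (1299 and 1710) and 34 in the fit of all 12 libraries (28 and 6). Without 1 library it ran from 71 to 707, with 53 to 304 higher and 18 to 403 lower. Of the 57 named genes that were called, 51 kept the call with offsets, 55 with DESeq2 and 31 in every fit without 1 library. Over all called genes, 29 were called in every alternative (24 higher, 5 lower). The replicate block gave 786 calls (254 higher, 532 lower), and 482 with the offsets added (263 and 219). Deviations of same-lettered libraries correlated at 0.05 (A), 0.12 (B) and 0.11 (C). Those of other pairs ran from -0.13 (L345 B with L6S1 C) to 0.05 (L345 A with L6S1 C), below the values of B and C. The main fit did not pair the pools by letter, and whether same-lettered pools shared mice was not tested. With the replicate block 56 of the 57 kept the call, all but Hoxd11 (adjusted p = 0.105). With block and offsets 49 did, and Wnt5a (0.0509) and Nrp1 (0.059) were lost under no other alternative but the fit of all libraries and, for Nrp1, fits without 1 library. The male minus female test gave 0 calls, 3 with no filter, and 0 to 817 without 1 library (817 without female L6S1 A). Values of uncalled genes near 0 turned sign: Mrgprd (-0.01) to 0.01 with RLE scaling and DESeq2, 0.03 with upper-quartile scaling, 0.00 with the stricter filter and the fit of all libraries, and as far as 0.10 without 1 library (lowest -0.11). Hoxd3os1 (-0.03) turned to 0.01 with upper-quartile scaling, 0.03 with the replicate block, 0.18 with limma-voom and between -0.27 and 0.35 without 1 library. The causes were not tested. With 3 pools in each group and 4 residual degrees of freedom, genes under a few CPM are limited by counting error, and a gene that was not called may still differ.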

Other observations

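Genes outside the rule for named genes, chosen here after their values were seen because they stayed called in every alternative, add other roles. The neural cell adhesion genes Negr1 and Ntm, both of the IgLON family, rose. Negr1 stood at 6.31, 4.96 and 6.06 CPM at L345 and at 17.4, 24.7 and 17.1 CPM at L6S1 (1.77 ± 0.20, adjusted p = 0.000712). Ntm stood at 10.9, 6.88 and 11.4 CPM at L345 and at 20.2, 35.2 and 38.3 CPM at L6S1 (1.68 ± 0.25, adjusted p = 0.00436). The groups of both genes were apart. C1qtnf7, a secreted protein related to adiponectin, rose by 1.52 ± 0.18 (adjusted p = 0.000712), from 12.7, 14.6 and 15.6 CPM to 33.1, 49.4 and 40.1 CPM. Upp1, a uridine phosphorylase, rose by 1.48 ± 0.18 (adjusted p = 0.000891), from 6.21, 6.53 and 5.45 CPM to 18.3, 15.02 and 17.2 CPM. Cidea, a lipid droplet protein, rose by 1.55 ± 0.22 (adjusted p = 0.00227), from 4.59, 3.04 and 3.88 CPM to 9.21, 12.4 and 12.1 CPM. The mitochondrial arginase gene Arg2 rose by 1.47 ± 0.25 (adjusted p = 0.00984) and Arap3, a regulator of small GTPases, by 2.62 ± 0.37 (adjusted p = 0.00258).

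Only 5 of the genes that fell stayed called in every alternative: Hoxb7, Hoxb6, Rab6a, Srsf6 and ENSMUSG00000048665. Rab6a, a small GTPase of Golgi traffic, was at 346, 335 and 364 CPM at L345 and at 170.1, 193 and 189 CPM at L6S1 (-0.92 ± 0.12, adjusted p = 0.00128). Srsf6, a splicing factor, was at 63.3, 64.9 and 60.8 CPM at L345 and at 32.0, 32.5 and 35.8 CPM at L6S1 (-0.91 ± 0.13, adjusted p = 0.00348). Both were nearly level within each group. ENSMUSG00000048665 (chr6:67165203-67165616) was at 2.68, 4.91 and 2.10 CPM at L345 and at 0.118, 0.424 and 0.411 CPM at L6S1 (-3.32 ± 0.46, adjusted p = 0.00207), while its change in females was 0.69. In the edgeR fit of 12 libraries, 26 of the 211 called genes had an unadjusted p under 0.05 for the difference between the sexes. ENSMUSG00000048665 was among the 26, none of which passed adjustment. Over all genes, 714 of 15281 (4.67%) had such a p. The 211 genes were chosen for their change in these same male libraries, so the 26 are not a result about sex.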
